A study of Mus musculus with 4 samples.

Results

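The 39 genes described here encode proteins that build the peroxisome or work inside it, and they were taken by symbol from the annotation of the array platform out of 16593 measured genes. They comprise 13 peroxins (the Pex genes), 2 transporters of the peroxisomal membrane and 24 enzymes of the peroxisomal matrix or its membrane face. Each gene was read by 1 probe, the one with the highest mean over the 4 arrays. RNA of whole liver from untreated male C57BL/6 mice, 4 weeks old, was measured on Illumina expression arrays in 2 TAK1 KO and 2 WT samples. TAK1 KO livers had the genotype Alb-Cre/ TAK1 flox, in which the albumin promoter drives Cre in hepatocytes, and WT livers had the genotype TAK1 flox, with no Cre named. All 4 samples therefore carry the floxed gene, and Cre and the deletion differ together. Whether this Cre also acts in liver cells other than hepatocytes was not examined here. Separate animals are not stated in the labels, so p-values measure only the spread between these samples, which may be technical. The comparison asks how liver expression differs when hepatocytes lack TAK1, a kinase of inflammatory and stress signalling.

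Peroxisomes are small organelles bounded by 1 membrane that import their enzymes fully folded from the cytosol. Peroxins insert membrane proteins, carry enzymes in and recycle the carriers. In liver the enzymes shorten very long-chain and branched fatty acids, build bile acid and ether lipid precursors, and oxidise glycolate and urate. Several of these oxidases release hydrogen peroxide, which catalase breaks down. Many of the genes are known in rodents as targets of PPARalpha, a nuclear receptor for fatty acids.

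Map3k7, which encodes TAK1, read 125 and 118 units in TAK1 KO livers, against 155 and 138 units in WT livers. This difference did not pass the test (log2 -0.26 ± 0.10, adjusted p = 0.116; each log2 value is TAK1 KO over WT, and ± gives its SE). Because the part of the transcript that the probe reads is not known here, it does not check the genotype labels. Median intensity was 81.5 to 81.9 units on the 4 arrays, and a reading of 100 units is used below as the level under which a probe is called dim. The 8 hepatocyte markers were all above 100 units, with Alb at 190.5 to 214.4 units on its probe. Of these 8, 0 passed the test in limma in either direction, and their summed intensity was 240099 and 229311 units in TAK1 KO livers and 209411 and 199995 units in WT livers. At an unadjusted p under 0.05, 4 of these 8 were higher in TAK1 KO livers and 0 were lower. Over all 16593 genes 2570 were higher and 2073 lower at that cut. At an adjusted p under 0.05, the test used for the markers below, 10.5% of all genes rose and 7.71% fell. Of 6 measured macrophage markers 4 passed upward (sums of 10968 and 11073 units in TAK1 KO livers, 5832 and 5332 units in WT livers), with 1 of 6, Cd5l, dim on every array. Of 8 stellate cell markers 7 passed upward (24298 and 20265 units in TAK1 KO livers, 9690.0 and 10534 units in WT livers), with 1 of 8, Lrat, dim on every array. Of 8 endothelial markers 2 fell, with 1 of 8, Kdr, dim on every array. Of 4 measured bile duct markers 1 rose, Sox9, itself above 100 units on 1 array, and 2 of 4 were dim on every array. Of 7 measured lymphocyte markers 1 rose, Ptprc, a gene of leukocytes in general that macrophages also express, and 3 of 7 were dim on every array. Whether these shifts in cell markers bear on the peroxisomal genes was not tested. In whole liver, fewer cells of a type and less RNA per cell cannot be told apart.

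Peroxisomal genes were mostly lower in TAK1 KO liver. Of the 39 genes 16 fell and 2 rose at an adjusted p under 0.05, and 21 did not pass. Over all 16593 genes 7.71% fell and 10.5% rose. At an unadjusted p under 0.05 in limma, 20 of the 39 genes were lower and 2 higher, against 2073 and 2570 of all genes. A level above 100 units on 2 or more arrays was reached by 36 of the 39 genes and by 7791 genes in all, of which 15.8% fell and 20.8% rose. Both TAK1 KO arrays lay below both WT arrays in 28 of the 39 genes and above them in 3, where the shares over all genes were 26.3% and 27.4%. The median log2 fold change was -0.32 over the 39 genes and -0.0036 over all genes. With either WT array left out fewer genes fell and neither rise (Nudt19 and Agps) passed, and Agps was missed without TAK1 KO replicate 2 as well. Such fits leave 1 sample in a group and are less precise. Over the 13 alternatives the log2 fold change was 0.42 to 0.80 for Nudt19 and 0.24 to 0.46 for Agps.

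**Figure D1:**
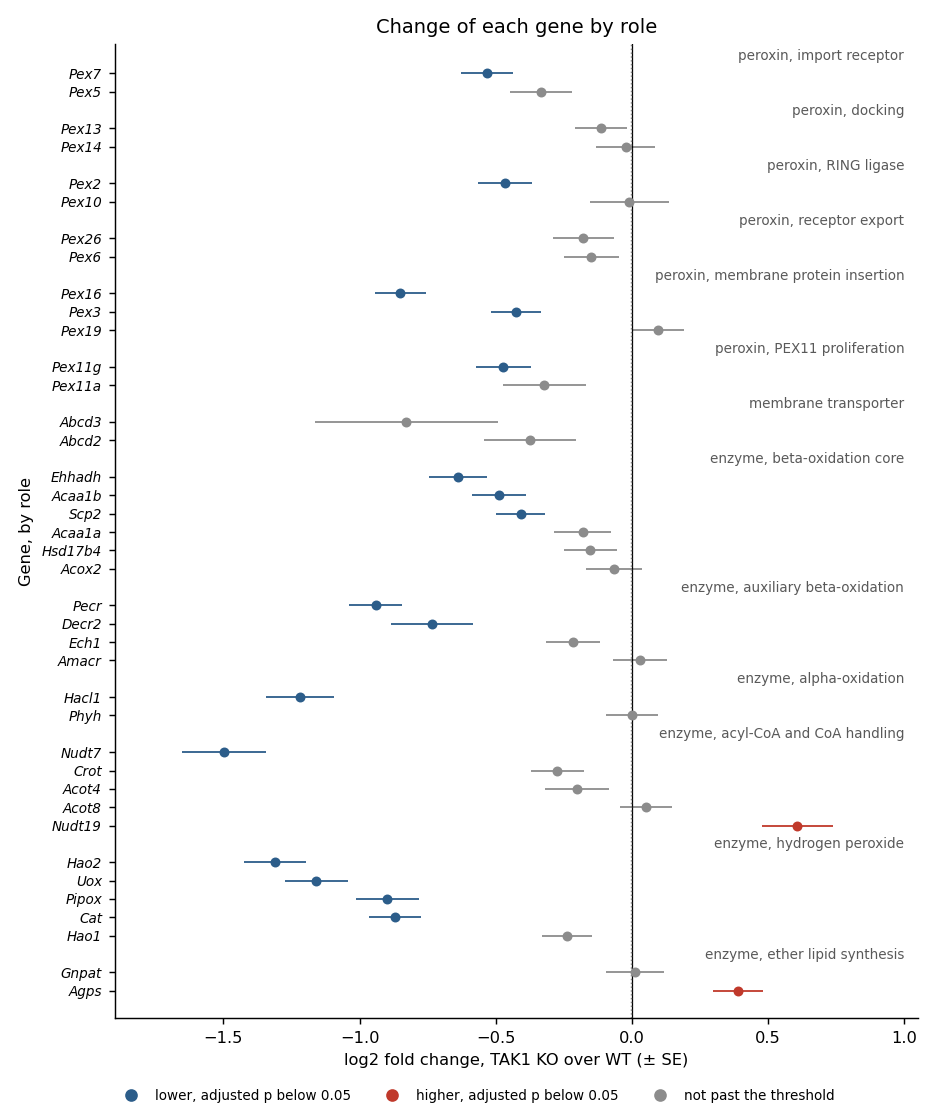
Log2 fold change (TAK1 KO over WT) of each of the 39 genes with its SE from limma (n = 2 arrays per group), grouped by role. Blue points are the 16 genes that fell, red points the 2 that rose (Nudt19 and Agps) and grey points the 21 that did not pass, and the dotted line is the median of all genes.

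Peroxins and matrix enzymes shifted downward by similar medians and differed in range. Among the 13 peroxins 5 fell and 0 rose in limma (6 lower and 0 higher at an unadjusted p under 0.05), with a median log2 fold change of -0.32 and values between -0.85 and 0.10. Among the 24 enzymes 11 fell and 2 rose, with a median of -0.26 and values between -1.50 and 0.61. The SD of the log2 fold change was 0.26 over the peroxins and 0.55 over the enzymes, and 4 enzymes but 0 peroxins were lower by more than 1 on the log2 scale. No test was made of the difference between these lists. The peroxin median was -0.16 without TAK1 KO replicate 2. Without WT replicate 1 the count of peroxins that fell was 2, and without WT replicate 2 it was 3. Pex10, Amacr and Phyh were dim on all 4 arrays.

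Among the peroxins that carry enzymes to the organelle, Pex7 was lower in TAK1 KO liver. Pex7 is the receptor for the few enzymes with an N-terminal targeting signal (PTS2), and it read 816 and 896 units in TAK1 KO livers, against 1269 and 1208 units in WT livers. The groups did not overlap, and Pex7 fell by 0.53 ± 0.10 on the log2 scale (adjusted p = 0.00444). Its other probe read 508 and 524 units in TAK1 KO livers, against 817 and 806 units in WT livers (log2 -0.65 ± 0.09, adjusted p = 0.00116 over all probes). The call on the first probe was missed without WT replicate 1 (adjusted p = 0.0519, with a range of 0.000473 to 0.0769 over the 13 alternatives). Pex5, the receptor for the C-terminal signal (PTS1) that most matrix enzymes carry, read 509.5 and 607 units in TAK1 KO livers, against 664 and 743 units in WT livers, and it did not pass (log2 -0.33 ± 0.11, adjusted p = 0.0803). Every TAK1 KO value of Pex5 lay below every WT value, also on its 2 other probes above 100 units, with log2 fold changes of -0.36 (adjusted p = 0.0454 over all probes, which passed) and -0.30 (adjusted p = 0.108, which did not). It was the gene nearest to the threshold among those that missed it, and Agps (adjusted p = 0.0171) was the nearest among those that passed. Without TAK1 KO replicate 2 Pex5 passed (adjusted p = 0.00837, with a range of 0.00837 to 0.386 over the 13 alternatives).

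The docking proteins that receive these carriers at the membrane showed small differences. Pex14 read 1366 and 1154 units in TAK1 KO livers, against 1232 and 1319 units in WT livers, groups that overlapped, with a log2 fold change of -0.02 ± 0.11 (SE) and a 95% interval of -0.27 to 0.22. Pex13 read 180.4 and 167 units in TAK1 KO livers, against 194 and 182 units in WT livers (log2 -0.11 ± 0.10, adjusted p = 0.547). Neither interval reached a fall of 0.5 on the log2 scale, that of Pex13 being -0.33 to 0.10.

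Of the ring-finger ligases that tag the carriers for recycling, Pex2 fell. It read 1056 and 950.1 units in TAK1 KO livers, against 1353 and 1418 units in WT livers, without overlap, and fell by 0.47 ± 0.10 on the log2 scale (adjusted p = 0.00939). This call was missed without WT replicate 1 (adjusted p = 0.0541) and without WT replicate 2 (0.0851), with a range of 0.00134 to 0.171 over the 13 alternatives, and its other probe was dim. Pex10, the partner ligase, was dim. Pex6, an ATPase that extracts the tagged carriers, read 2649.8 and 2676 units in TAK1 KO livers, against 3165 and 2756 units in WT livers (log2 -0.15 ± 0.10, adjusted p = 0.423). Its second probe, at 249.9 and 254 units in TAK1 KO livers, against 375 and 298 units in WT livers, gave log2 -0.40 ± 0.12, adjusted p = 0.0486 over all probes. The probes of Pex6 disagree on the call and share the direction. Pex26, the membrane anchor of this ATPase, read 133 and 109.8 units in TAK1 KO livers, against 133 and 141 units in WT livers (log2 -0.18 ± 0.11, adjusted p = 0.370).

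The proteins that insert membrane proteins into the peroxisome split. Pex16, a membrane receptor in this route, had the largest fall of the 13 peroxins, reading 429.7 and 402 units in TAK1 KO livers, against 757 and 748 units in WT livers. The values lay close together within each group and far apart between them, and Pex16 fell by 0.85 ± 0.09 on the log2 scale (adjusted p = 0.000299), a 1.80-fold difference that passed under each of the 13 alternatives. Pex3, which docks the chaperone Pex19, read 517 and 507 units in TAK1 KO livers, against 668 and 711 units in WT livers and fell by 0.43 ± 0.09 on the log2 scale (adjusted p = 0.0111). Its second probe gave log2 -0.43 as well, and the call was missed without WT replicate 2 (adjusted p = 0.0941, with a range of 0.00926 to 0.0941 over the alternatives). Pex19, the soluble chaperone of newly made membrane proteins, read 3057 and 2779.8 units in TAK1 KO livers, against 2708 and 2741 units in WT livers. Its TAK1 KO values lay above its WT values by little, the change did not pass (log2 0.10 ± 0.10, adjusted p = 0.617), and its other probe ran the other way (log2 -0.06).

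Both measured PEX11 genes, whose proteins elongate peroxisomes before division, read lower. Pex11g read 768 and 726 units in TAK1 KO livers, against 1104 and 974 units in WT livers and fell by 0.47 ± 0.10 on the log2 scale (adjusted p = 0.0106), a call missed without WT replicate 1 (adjusted p = 0.101, with a range of 0.00295 to 0.124 over the alternatives). Pex11a, a known PPARalpha target in rodents, read 1038 and 726 units in TAK1 KO livers, against 1069 and 1103 units in WT livers. Only TAK1 KO replicate 2 stood clearly below the WT arrays, and Pex11a did not pass (log2 -0.32 ± 0.15, adjusted p = 0.211). It passed without TAK1 KO replicate 1 (log2 -0.58, adjusted p = 0.000644) and had a log2 fold change of -0.07 without TAK1 KO replicate 2, with an adjusted p of 0.000644 to 0.851 over the alternatives. The 2 other probes of Pex11a gave log2 -0.47 and -0.34, with the lower value in TAK1 KO replicate 2 on each.

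**Figure D2:**
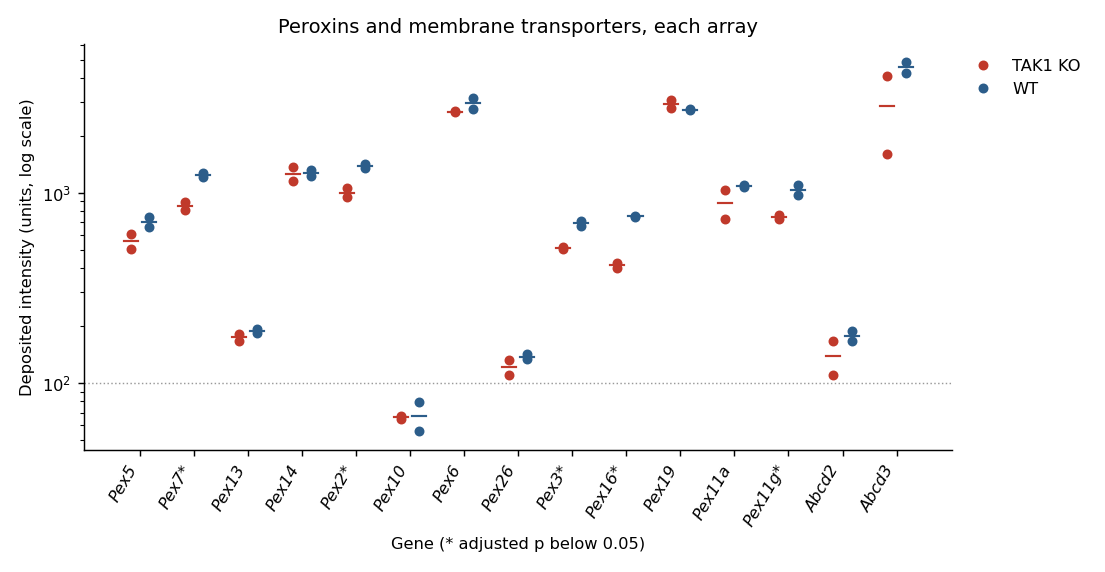
Deposited intensity (units, log scale) of the 13 peroxins and the 2 membrane transporters on each array, with TAK1 KO left of WT, points for arrays and bars for group means; the dotted line marks 100 units. Pex16 and Pex7 show the clearest separation, and Abcd3 the widest gap between the TAK1 KO arrays.

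On the brightest probe of each gene, the transporters that bring fatty acids into the peroxisome varied more between the TAK1 KO arrays than any enzyme. The other probe of Abcd2 had a narrower gap, at 142 and 108 units in TAK1 KO livers. Abcd3, which imports branched-chain acyl groups and bile acid precursors, read 4096 and 1601 units in TAK1 KO livers, against 4275 and 4843 units in WT livers. One TAK1 KO array was close to WT and the other far below it, and the change did not pass (log2 -0.83 ± 0.34, adjusted p = 0.142). It was -1.50 without TAK1 KO replicate 1 and -0.15 without TAK1 KO replicate 2, and the adjusted p ranged from 7.85e-12 to 0.787 over the alternatives. Abcd2, a transporter of very long-chain and polyunsaturated acyl groups, read 167 and 109.8 units in TAK1 KO livers, against 187 and 167 units in WT livers (log2 -0.37 ± 0.17, adjusted p = 0.191), again with the lower value in TAK1 KO replicate 2. Its call turned without TAK1 KO replicate 1 (log2 -0.66, adjusted p = 0.000122, with a range of 0.000122 to 0.805 over the alternatives).

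These 2 transporters belong to 4 genes, with Pex11a and Nudt7, whose TAK1 KO arrays lay more than 0.5 apart on the log2 scale. In each of the 4 replicate 2 was the lower. They make up 10.3% of the 39 genes, where 1.92% of all genes and 3.81% of the 7791 brighter genes had such a gap. Between the WT arrays 1 of the 39 genes, Decr2, lay that far apart (2.56%, and 0.874% of all genes). The median gap over the 39 genes was 0.12 between the TAK1 KO arrays and 0.12 between the WT arrays. The peroxins had a median change of -0.16 on TAK1 KO replicate 1 and -0.31 on TAK1 KO replicate 2, and the enzymes -0.26 and -0.32, each against the mean of the WT arrays.

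**Figure D3:**
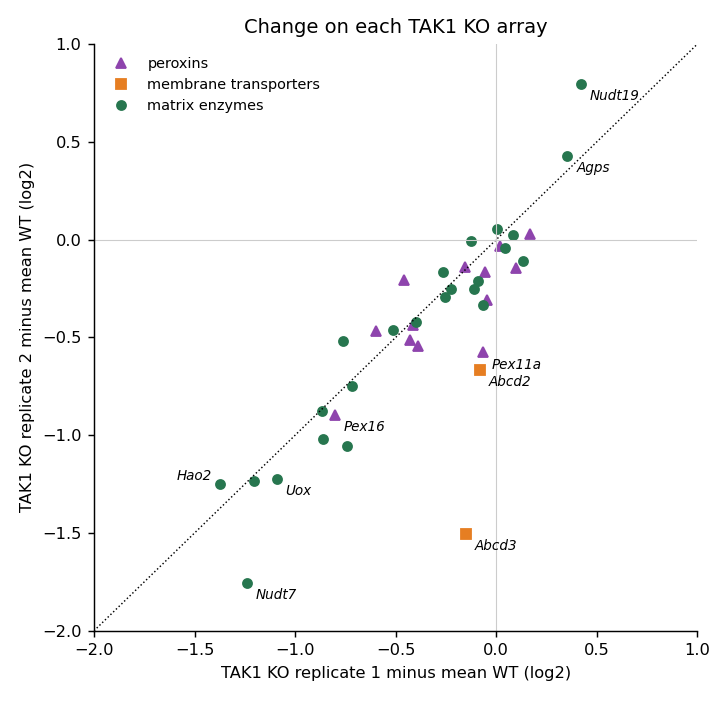
Log2 change of each of the 39 genes on TAK1 KO replicate 1 (horizontal) and replicate 2 (vertical), each against the mean of the 2 WT arrays, with triangles for peroxins, squares for transporters and circles for matrix enzymes; the dotted line marks equal change. Most genes lie near the line, while Abcd3, Abcd2, Pex11a and Nudt7 lie below it.

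In the core of peroxisomal beta-oxidation, the stepwise shortening of acyl chains, 3 of 6 enzymes fell. Ehhadh, the bifunctional enzyme that acts on straight chains and dicarboxylic acids, read 827 and 980.5 units in TAK1 KO livers, against 1397 and 1413 units in WT livers. It fell by 0.64 ± 0.11 on the log2 scale (adjusted p = 0.00292). Acaa1b and Acaa1a are closely related thiolases of the last step, and a probe of one may also bind the other. Acaa1b read 13195 and 13692 units in TAK1 KO livers, against 17722 and 20041 units in WT livers and fell by 0.49 ± 0.10 on the log2 scale (adjusted p = 0.00826), which was missed without WT replicate 2 (adjusted p = 0.0851, with a range of 0.00311 to 0.108 over the alternatives). Acaa1a read 6938 and 6299 units in TAK1 KO livers, against 7969 and 7045 units in WT livers (log2 -0.18 ± 0.10, adjusted p = 0.325). Both thiolases had their TAK1 KO values below their WT values, and 1 of them passed. That call, of Acaa1b, was also missed with quantile normalization (adjusted p = 0.0503) and a normexp offset of 16 (0.0554).

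Scp2, whose locus encodes the thiolase for branched chains and a sterol carrier protein, read 11352 and 11164 units in TAK1 KO livers, against 15361 and 14549.5 units in WT livers and fell by 0.41 ± 0.09 on the log2 scale (adjusted p = 0.0131). A second probe gave log2 -0.41, whereas another, at 3329.7 and 2917 units in TAK1 KO livers, against 3356 and 2912 units in WT livers, gave log2 -0.0045, so the probes of this gene disagree. Scp2 missed the threshold with the mean over all probes (adjusted p = 0.160), quantile normalization (0.0537) and a normexp offset of 16 (0.0910). The call was missed without WT replicate 1 (adjusted p = 0.103) and without WT replicate 2 (0.0575), with a range of 0.00938 to 0.160 over the alternatives. Hsd17b4, the other bifunctional enzyme, which acts on branched chains and bile acid precursors, read 5096 and 4692 units in TAK1 KO livers, against 5234 and 5642 units in WT livers. Acox2, the oxidase of the same substrates, read 3962 and 4303 units in TAK1 KO livers, against 4069 and 4598 units in WT livers. Neither passed, with log2 fold changes of -0.15 ± 0.10 (adjusted p = 0.387) and -0.07 ± 0.10 (SE; adjusted p = 0.780), and with 95% intervals of -0.37 to 0.07 and -0.30 to 0.17.

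Among the auxiliary enzymes, which handle double bonds and stereochemistry, Pecr and Decr2 fell. Pecr, a trans-2-enoyl-CoA reductase, read 1231 and 1101 units in TAK1 KO livers, against 2263 and 2215 units in WT livers, and it fell by 0.94 ± 0.10 on the log2 scale (adjusted p = 0.000230), which passed under each of the 13 alternatives. Decr2, the peroxisomal dienoyl-CoA reductase, read 262 and 256 units in TAK1 KO livers, against 517 and 362 units in WT livers. Its WT arrays differed from each other, yet both lay above the TAK1 KO arrays, and Decr2 fell by 0.73 ± 0.15 on the log2 scale (adjusted p = 0.00854). Its second probe gave log2 -0.61 ± 0.15 (SE). Ech1, a dienoyl-CoA isomerase found in mitochondria as well, read 4831 and 5170.5 units in TAK1 KO livers, against 5516 and 6111 units in WT livers (log2 -0.22 ± 0.10, adjusted p = 0.196). Amacr, the racemase for branched acyl groups, was dim.

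Alpha-oxidation removes 1 carbon from phytanic acid, a branched fatty acid of the diet. Its lyase Hacl1 read 607 and 596 units in TAK1 KO livers, against 1239.9 and 1595 units in WT livers. The TAK1 KO arrays were close to each other and far below WT, and Hacl1 fell by 1.22 ± 0.12 on the log2 scale (adjusted p = 0.000215), a 2.33-fold difference. Its second probe was dim. Phyh, the hydroxylase of the preceding step, read 55.2 to 59.0 units on the 4 arrays, under 100 units throughout, so no fold is given.

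Nudt7 and Nudt19, both hydrolases that split coenzyme A and its esters in the peroxisome, moved in opposite directions. Nudt7 read 4841 and 3385 units in TAK1 KO livers, against 11944 and 10957 units in WT livers. It had the largest fall of the 39 genes, at 2.82-fold lower (log2 -1.50 ± 0.15 SE, adjusted p = 0.000227), and a second probe, annotated to another transcript, read 129.7 and 90.8 units in TAK1 KO livers, against 355 and 242 units in WT livers (log2 -1.40 ± 0.20). Nudt19, known mainly from mouse kidney, read 1470.1 and 1909 units in TAK1 KO livers, against 1049.9 and 1148 units in WT livers. Its TAK1 KO values lay above its WT values on both probes, with log2 fold changes of 0.61 ± 0.13 (adjusted p = 0.0106) and 0.50 ± 0.11 (adjusted p = 0.0119 over all probes). The rise of Nudt19 was missed without WT replicate 1 (adjusted p = 0.112) and without WT replicate 2 (0.0597), with a range of 6.78e-06 to 0.233 over the alternatives.

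Other enzymes that handle acyl groups did not pass. Crot, which moves shortened chains onto carnitine for export, read 129 and 125 units in TAK1 KO livers, against 146 and 164 units in WT livers (log2 -0.27 ± 0.10, adjusted p = 0.0938). Acot4, a thioesterase for succinyl-CoA and related esters, read 629.5 and 522 units in TAK1 KO livers, against 618 and 705 units in WT livers (log2 -0.20 ± 0.12, adjusted p = 0.336). Acot8, a thioesterase of broad range, read 952 and 913 units in TAK1 KO livers, against 939 and 861 units in WT livers (log2 0.05 ± 0.10, adjusted p = 0.816). In Acot4 and Acot8 the groups overlapped, and the 2 other probes of Acot8 gave log2 -0.14 and -0.16 against 0.05 on the brightest.

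Of 5 enzymes outside beta-oxidation that make or remove hydrogen peroxide 4 fell, where 7.71% of all genes fell. Acox2, given above with beta-oxidation, also releases hydrogen peroxide and did not pass. Hao2, a 2-hydroxy acid oxidase, read 591 and 646 units in TAK1 KO livers, against 1406 and 1685 units in WT livers, and was 2.48-fold lower (log2 -1.31 ± 0.11 SE, adjusted p = 9.02e-05). Uox, the urate oxidase that rodents keep and humans lack, read 5772 and 5261 units in TAK1 KO livers, against 11167 and 13564 units in WT livers, and was 2.23-fold lower (log2 -1.16 ± 0.12 SE, adjusted p = 0.000192). In both genes every TAK1 KO value was well below every WT value, and the second probe of Uox gave log2 -1.05 ± 0.11 (SE).

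Pipox, which oxidises sarcosine and pipecolic acid, read 843 and 678 units in TAK1 KO livers, against 1399 and 1426 units in WT livers and fell by 0.90 ± 0.12 on the log2 scale (adjusted p = 0.000766), with log2 -0.98 ± 0.12 (SE) on its second probe. Cat, the catalase that removes the peroxide, read 4934 and 4898 units in TAK1 KO livers, against 9418 and 8574 units in WT livers and fell by 0.87 ± 0.09 on the log2 scale (adjusted p = 0.000309). The fall of Cat passed under each of the 13 alternatives. Hao1, the glycolate oxidase of hepatocytes, read 4184 and 4108 units in TAK1 KO livers, against 4762 and 5031 units in WT livers, and did not pass (log2 -0.24 ± 0.09, adjusted p = 0.118), although the groups did not overlap. Its 95% interval, -0.45 to -0.03, does not reach the changes of the 4 that fell.

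**Figure D4:**
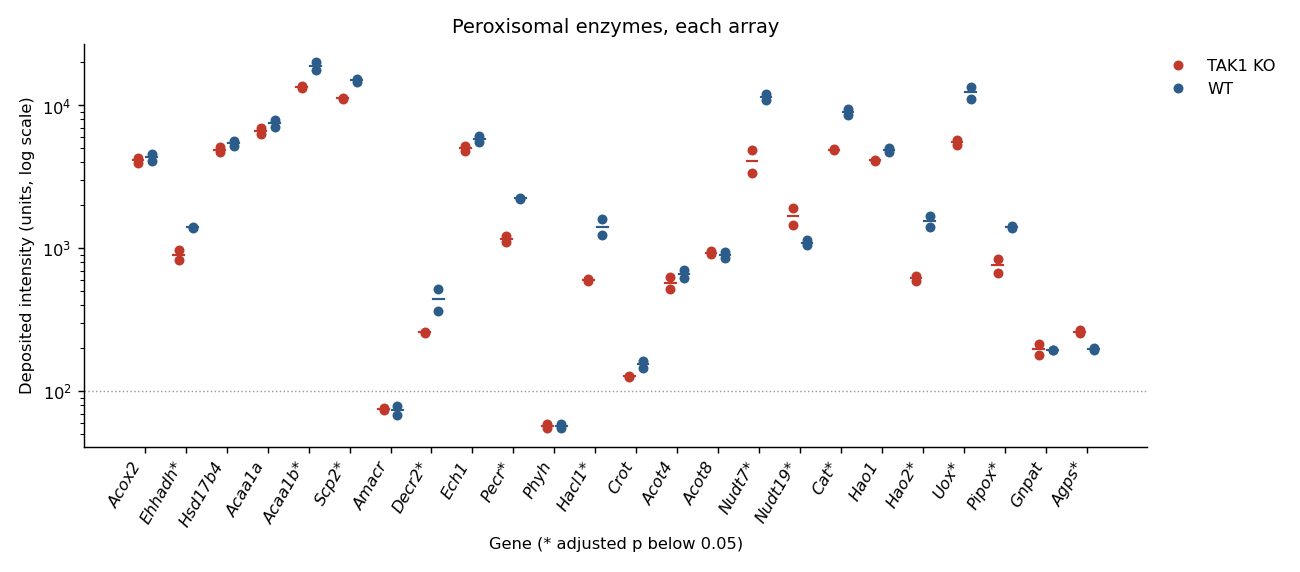
Deposited intensity (units, log scale) of the 24 enzymes on each array, with TAK1 KO left of WT, points for arrays and bars for group means; the dotted line marks 100 units. The TAK1 KO points of Nudt7, Hacl1, Hao2 and Uox lie furthest below their WT points, and those of Nudt19 and Agps lie above.

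Ether lipid synthesis begins with Gnpat, an acyltransferase, and Agps, which puts in the ether bond. Agps read 254 and 268 units in TAK1 KO livers, against 202 and 194 units in WT livers, and rose (log2 0.39 ± 0.09 SE, adjusted p = 0.0171), while its other probe gave a log2 fold change of 0.09 ± 0.09 (SE) that did not pass. The rise of Agps was missed without WT replicate 1 (adjusted p = 0.0746), without WT replicate 2 (0.119) and without TAK1 KO replicate 2 (0.0502), with a range of 0.0122 to 0.119 over the alternatives. Gnpat read 214 and 181 units in TAK1 KO livers, against 195 and 195 units in WT livers (log2 0.01 ± 0.11, adjusted p = 0.970), and its groups overlapped. Agps, Acaa1a, Acaa1b and Phyh are known to enter by the PTS2 route that Pex7 serves, a grouping made after their values were seen. Of these 4 genes 1 fell and 1 rose.

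Of the 39 genes 18 had more than 1 probe, and 15 had another probe above 100 units on average. Of these 19 other probes 16 had the same sign as the brightest probe. The exceptions were both other probes of Acot8 and that of Pex19, genes whose brightest probe changed by at most 0.10 on the log2 scale. The same sign did not always mean a like size. Among the 16, a probe of Scp2 gave log2 -0.0045 against -0.41 on the brightest, and that of Agps 0.09 against 0.39.

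Further peroxisomal genes, listed apart from the 39, were also lower where they passed. Of 51 listed genes 39 were measured, of which 18 fell and 0 rose, with a median log2 fold change of -0.42. Over all genes 7.71% fell and 10.5% rose. At an unadjusted p under 0.05 in limma 0 of the measured listed genes were higher and 22 lower, against 2570 and 2073 of all 16593 genes. Without WT replicate 1 the count of falls was 10. The 4 largest were in Pxmp2, a channel of the peroxisomal membrane (812 and 644 units in TAK1 KO livers, against 1629 and 1732 units in WT livers; log2 -1.21 ± 0.12, adjusted p = 0.000192), Slc27a2, an activating enzyme for very long-chain fatty acids (log2 -1.08 ± 0.18 SE), Agxt, the transaminase that removes glyoxylate (log2 -0.99 ± 0.09 SE), and Ddo, the oxidase of D-aspartate (log2 -0.90 ± 0.12 SE). All 18 falls were in enzymes (14 of 23 measured) or other membrane proteins (4 of 11), and 0 of 5 remaining peroxins and division factors passed (0 at an unadjusted p under 0.05 as well). Among the division factors Fis1 read 1103 and 1054 units in TAK1 KO livers, against 1025 and 1102 units in WT livers, and Dnm1l read 377 and 389 units in TAK1 KO livers, against 350.5 and 367 units in WT livers.

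Mitochondrial beta-oxidation, which handles shorter chains, was set beside these genes. Of 17 measured genes 8 fell and 0 rose (0 also at an unadjusted p under 0.05), with a median log2 fold change of -0.20. Over all genes 7.71% fell and 10.5% rose, and among the 7791 brighter genes 15.8% fell and 20.8% rose. The 4 largest falls were in Etfdh (log2 -0.96 ± 0.09 SE), which passes electrons to the respiratory chain, Slc25a20 (-0.55 ± 0.14), the carnitine carrier, Hadh (-0.53 ± 0.12), a dehydrogenase of the spiral, and Acat1 (-0.50 ± 0.11), a thiolase. Acadm and Hadhb, also of the spiral, did not pass and had log2 fold changes of 0.11 ± 0.09 and 0.07 ± 0.09 (SE). This count was 2 without WT replicate 1 and 3 without WT replicate 2. Slc25a20 and Hadh missed the threshold without either WT array and Acat1 without WT replicate 1, with adjusted p ranges over the alternatives of 9.94e-06 to 0.326, 7.53e-05 to 0.244 and 0.00108 to 0.145; Slc25a20 missed it without TAK1 KO replicate 2 as well.

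**Figure D5:**
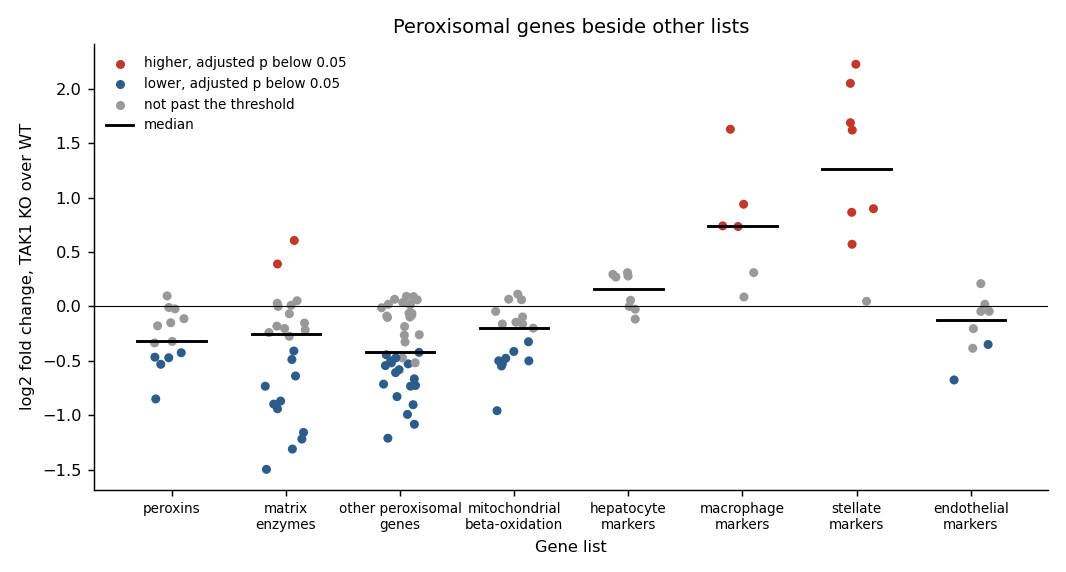
Log2 fold change (TAK1 KO over WT) of the genes of 8 lists, 1 point per gene with horizontal jitter, and black bars for the list medians. Peroxins, matrix enzymes, further peroxisomal genes and mitochondrial beta-oxidation genes have medians below 0, as do endothelial markers (median -0.12). Hepatocyte markers lie between -0.12 and 0.31, and macrophage and stellate markers have medians of 0.74 and 1.26.

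Among regulators, Ppara, which encodes PPARalpha, read 122 and 109.9 units in TAK1 KO livers, against 129.5 and 139 units in WT livers (log2 -0.21 ± 0.10, adjusted p = 0.214). Its partner Rxra read 209 and 196 units in TAK1 KO livers, against 217 and 222 units in WT livers (log2 -0.11 ± 0.09, adjusted p = 0.520). Neither passed, and the groups did not overlap in either gene. The coactivator Ppargc1a read 257 and 155 units in TAK1 KO livers, against 241 and 224 units in WT livers (log2 -0.21 ± 0.19, adjusted p = 0.583), with TAK1 KO replicate 2 the lowest and groups that overlapped. Without TAK1 KO replicate 1 it passed as lower (log2 -0.57, adjusted p = 0.000803), and without TAK1 KO replicate 2 the sign turned (log2 0.14, adjusted p = 0.587); the adjusted p ranged from 0.000803 to 1 over the alternatives. Its relative Ppargc1b read 159 and 125 units in TAK1 KO livers, against 192 and 232 units in WT livers and fell by 0.57 ± 0.14 on the log2 scale (adjusted p = 0.0183), which was missed without WT replicate 2 (adjusted p = 0.173, with a range of 4.18e-05 to 0.293 over the alternatives). The bile acid receptor Nr1h4 read 2275 and 1598 units in TAK1 KO livers, against 2794 and 3023 units in WT livers and fell by 0.61 ± 0.15 on the log2 scale (adjusted p = 0.0232), again with TAK1 KO replicate 2 the lowest. That call was missed without WT replicate 1 (adjusted p = 0.110), WT replicate 2 (0.179) or TAK1 KO replicate 2 (0.0519), with a range of 1.57e-06 to 0.347 over the alternatives. Hnf4a, a main factor of hepatocytes, had a log2 fold change of 0.01 ± 0.11, and the coactivators Ncoa1 and Med1 had -0.10 ± 0.09 and -0.12 ± 0.09 (SE), of which none passed.

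PPARalpha binds with its partner to direct repeats of a 6-base element, and the promoter windows of the 39 genes were searched for it because 16 of them fell together. RefSeq windows of 300 bases (250 before and 50 after the start, GRCm38.p6) matched 34 of the 39 genes by symbol, 15 of them genes that fell. The single element AGGTCA, searched on both strands, lay in a window of 5 of the 34 genes (Acot4, Cat, Pex11g, Phyh and Scp2), and in 18.13% of all 27025 genes with a window. The repeat AGGNCANAGGNCA (N is any base, both strands), whose parts are AGGTCA where N is T, lay in 0 of the 34 genes and in 0.45% of all genes. No match says only that these letters are not in this window. Among the 15 genes that fell and had a window, 3 held the single element, a share near the 18.13% of all genes. The windows of these 3 genes are below, with the element in capitals. Counted in bases from the start along the gene's strand, it began at -204 in Cat, -109 in Scp2 and -173 in Pex11g. The windows lie at chr2:103485104-103485403 for Cat, chr4:108118498-108118797 for Scp2 and chr8:3467599-3467898 for Pex11g, each on the minus strand.
Cat: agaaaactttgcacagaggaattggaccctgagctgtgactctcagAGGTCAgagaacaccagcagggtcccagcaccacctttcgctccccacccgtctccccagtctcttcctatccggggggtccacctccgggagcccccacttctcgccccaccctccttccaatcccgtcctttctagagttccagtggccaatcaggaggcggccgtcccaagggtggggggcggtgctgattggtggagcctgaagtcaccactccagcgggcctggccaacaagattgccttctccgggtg
Scp2: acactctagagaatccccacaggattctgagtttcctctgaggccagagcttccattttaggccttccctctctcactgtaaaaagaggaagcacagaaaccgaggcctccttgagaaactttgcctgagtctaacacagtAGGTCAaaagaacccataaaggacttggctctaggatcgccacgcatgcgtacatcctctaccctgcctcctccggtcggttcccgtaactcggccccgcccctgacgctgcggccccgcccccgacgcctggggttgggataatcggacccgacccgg
Pex11g: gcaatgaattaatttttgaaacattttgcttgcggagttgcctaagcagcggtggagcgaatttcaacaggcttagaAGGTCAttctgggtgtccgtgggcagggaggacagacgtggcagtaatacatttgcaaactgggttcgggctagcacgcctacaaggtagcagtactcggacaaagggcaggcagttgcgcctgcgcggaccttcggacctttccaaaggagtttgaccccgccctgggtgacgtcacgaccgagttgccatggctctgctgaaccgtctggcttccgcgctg
Beside these sequences, Cat fell by 0.87, Scp2 by 0.41 and Pex11g by 0.47 on the log2 scale. Acot4 and Phyh also held the element and did not pass, Phyh being dim. Uox, Hao2, Hacl1 and Nudt7, named after their values were seen, fell by more and held no AGGTCA in their windows. Whether the element bears on these changes was not tested.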

How the data were processed

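Whole-liver RNA of 4 samples was read on 1 Illumina array each; per the labels' protocols, Trizol extraction was followed by column clean-up with DNase I and biotin labelling of cRNA. The authors deposited linear probe intensity values, whose nearly equal medians are those of arrays normalized together; how this was done was not given in the sources used here. A second table had 4 columns whose names match no sample, and these were not used. Groups come from the sample titles.

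Probes were named through the platform annotation, with symbols updated to the GRCm38.p6 RefSeq table. Of 25697 probes 23978 had 1 gene, 0 several and 1719 none. After limma's normexp correction (offset 50), log2 values were compared between TAK1 KO and WT over all 16593 genes. The tool was limma 3.58.1 under R 4.3.3, with lmFit, eBayes and two-sided p-values (2 residual and 6.85 prior degrees of freedom). P-values were adjusted by Benjamini and Hochberg's method across the whole table, and genes passed below 0.05. The offset understates changes of dim genes. Every adjusted p is limma's; one given "over all probes" comes from a fit to all named probes. The number of arrays, 2 per group, limits the precision. The limma fit was tested on simulated arrays with independent errors and few changed genes. The normexp step was not part of that test, so it does not cover the whole procedure.

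The members and lists were chosen with earlier results of these data known. By the rule for named genes all 39 members are given, with up to 4 of the largest passing changes in either direction in each other list, and all regulators. Fis1, Dnm1l, Acadm, Hadhb and the markers named singly were chosen after their values were seen. The labels name no batch. The 13 alternatives covered background, normalization, probe choice, floor and filter on dim probes, variance prior, array weights, the replicate block and leaving out each array. Listed genes without a probe of their name were not analysed here.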

Additional observations from a re-analysis of the deposited data

How the results depend on the processing

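Of the 18 genes that passed, 3 (Cat, Pecr and Pex16) did so under each of the 13 alternatives, 7 missed the threshold only where values below 100 units were set to 100, and 8 missed it under another alternative too; 0 reversed. That floor left 50.2% of genes with no residual variance, which makes limma's prior unreliable, and passed 752 of all genes and 3 of the 39, all 3 lower and 0 higher. Genes that rose numbered 1 with a normexp offset of 16 and 1 with the mean over all probes of a gene, which also gave a peroxin median of -0.23. With the offset of 16, 12 of the 18 calls were kept in the same direction. Quantile normalization kept 16 of them, and the mean over all probes of a gene kept 15. Leaving out 1 array gave 1800 to 3304 genes passing over all genes (3022 with all 4), 12 to 21 of the 39 passing, 12 to 19 lower, 0 to 2 higher, a peroxin median of -0.34 to -0.16 and an enzyme median of -0.33 to -0.23. Where 1 array is left out, the lone array of a group is assumed to vary like the other group's. With the replicate block 3067 genes passed over all genes, and 19 of the 39, of which 17 were lower and 2 higher; Pex5 was the gene added (adjusted p = 0.0435). The labels do not say whether same-numbered samples are paired. Their deviations from the group means correlated at r = 0.0453 across genes, which are not independent replicates, so this value cannot decide it. With the same offset of 16, 2 peroxins and 4 mitochondrial beta-oxidation genes fell. Dim probes limit what can be said of Pex10, Amacr and Phyh.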
